A study of Homo sapiens with 6 samples.

Results

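The axon guidance ligands and receptors were examined in PA1, an ovarian teratocarcinoma cell line of human origin, after SOX2, a pluripotency and neural progenitor transcription factor, was reduced with small interfering RNA (siRNA). The genes were chosen by symbol and cover the semaphorins of classes 3 to 7, plexins, neuropilins, SLIT and ROBO genes, netrins, DCC and UNC5 receptors, ephrins and Eph receptors. These are 69 of the 59653 gene symbols in the table, and 53 of them passed the filter on low counts. Both groups were of wildtype genotype. The comparison group received a negative control siRNA, and the other group received siRNA against SOX2, for which the series describes 2 sequences without saying whether they were pooled. Cells of both groups were transfected in adherent culture, moved after 24 h to poly-HEMA coated plates, which prevent attachment, and grown there for 72 h before RNA extraction. Each group had 3 mRNA sequencing libraries. Nothing in the labels says that they came from separate cultures, so p-values measure the spread between these libraries, which may be technical.

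Axon guidance molecules are secreted or membrane-bound ligands and their cell surface receptors, which steer growing nerve fibres by attraction or repulsion and also direct cell migration, vessel growth and tissue boundaries. Secreted class 3 semaphorins bind a neuropilin together with a class A plexin, other semaphorins bind plexins directly, Slits bind Robos, and netrins bind DCC or UNC5 receptors. Ephrins are held on the cell surface, and they bind Eph receptor tyrosine kinases on neighbouring cells, with class A ephrins preferring EphA and class B ephrins preferring EphB receptors.

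Total counts per library lay between 25152313 and 32753184, and 3 counts corresponded to 0.0909 to 0.12 CPM (counts scaled to a library size of 1e6 after TMM adjustment). The member genes took 0.254% to 0.259% of counts in control and 0.284% to 0.291% after SOX2 siRNA. SOX2 itself stood at 245, 265 and 256 CPM with control siRNA and at 51.8, 54.9 and 50.6 CPM with SOX2 siRNA, in the order of replicates 1 to 3 (log2 fold change -2.28, SE 0.0437; edgeR adjusted p = 5.97e-16). Of 8 markers of pluripotent and embryonal carcinoma cells, 7 passed the filter, with POU5F1 at 301 ± 18.6 CPM and LIN28A at 706 ± 3.61 CPM in control (SD, n = 3). LIN28A, LIN28B, DNMT3B and POU5F1 were called higher after SOX2 siRNA, with log2 fold changes of 0.70, 0.59, 0.40 and 0.17, and PODXL was called lower (log2 fold change -0.97). The summed level of the list, not scaled by gene length, was 2775 to 2836 CPM in control and 2769 to 2835 CPM after SOX2 siRNA. These similar sums hid opposite changes of abundant markers. Mean PODXL fell from 1316 to 671 CPM, while LIN28A rose from 706 to 1148 CPM and LIN28B from 239 to 359 CPM (n = 3). L1TD1 was low at 1.79 ± 0.921 CPM in control, and TDGF1 had at most 3 counts in any library. Of 8 neuronal markers, DCX, ELAVL3, ELAVL4 and STMN2 had at most 5 counts in any library. Among the 4 that passed the filter, TUBB3 was called higher, GAP43 and SYT1 were called lower, and SNAP25 was not called (log2 fold change -0.59). TUBB3 went from 28.9 ± 3.59 to 48.5 ± 1.42 CPM and GAP43 from 44.6 ± 2.11 to 34.0 ± 1.19 CPM (mean ± SD, n = 3). Of the exon bases of TUBB3, 35.8% overlap a gene on the same strand, so its counts are uncertain. The summed level of the list was 85.1 to 96.0 CPM in control and 97.4 to 98.5 CPM after SOX2 siRNA. Only TUBB3 rose among the tested genes of this list, whose median log2 fold change was -0.30. In bulk RNA, fewer cells expressing a gene and less RNA per cell cannot be told apart.

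Each of the 13 families held at least 1 member called after SOX2 siRNA. Calls went in both directions over the members as a whole, but not within each family. All calls were higher in class 4 semaphorins, neuropilins, ROBO genes, netrins, DCC and UNC5 genes, ephrin-A genes and EPHB genes. By edgeR's quasi-likelihood test, with p-values adjusted over the 17592 genes tested and a call at values under 0.05, 35 of the 53 tested members were called (66.0%), against 28.2% of all tested genes. Of these, 22 were higher, where the share of all genes called higher was 14.8%, and 13 were lower, where it was 13.4%. Calls are more frequent among abundant genes, so the comparison was repeated at a mean of at least 10 CPM, where 28 of 39 members (71.8%) and 35.9% of all genes were called. The median log2 fold change was 0.15 over the tested members and -0.00085 over all tested genes, and the median size regardless of sign was 0.38 against 0.146. These shares are descriptions without a test of the list, and the members were chosen with earlier results of these data known. The counts by family given below rest on few genes each and are to be read beside the shares of all tested genes.

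A change of at least 2-fold was found for 9 members (17% of those tested, against 3.17% of all tested genes). NRP1, PLXNA2, SLIT2, EFNA1 and SEMA5A were higher, and EPHA3, EPHA4, PLXNC1 and SLIT1 were lower. The 3 SOX2 siRNA libraries lay entirely above or entirely below the 3 control libraries in 39 of the 53 tested members (73.6%), against 41.8% of all tested genes. These 39 are the 35 called members and SEMA4A, SEMA4G, PLXNA1 and EFNB2. When the test asked instead for a change beyond 1.5-fold (edgeR's glmTreat), 5 higher and 4 lower members were still called. These were NRP1, NRP2, PLXNA2, SLIT2 and EFNA1 among the higher genes and EPHA3, EPHA4, PLXNC1 and SLIT1 among the lower.

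**Figure D1:**
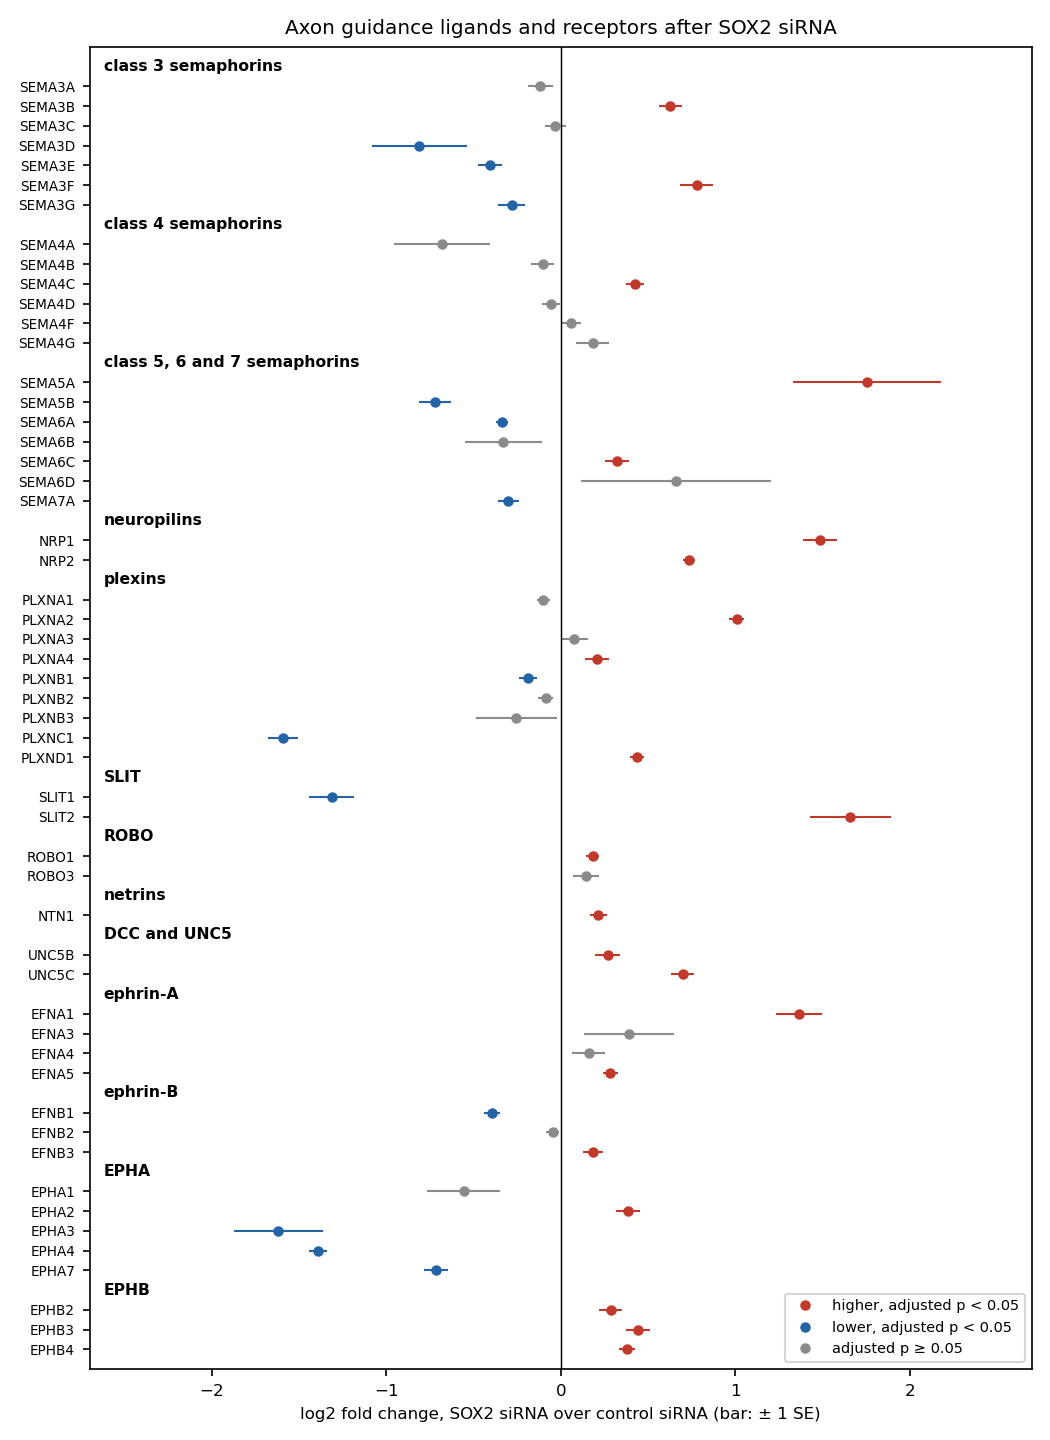
Log2 fold change of the 53 tested members, SOX2 siRNA over control siRNA, grouped by family; points are edgeR estimates and bars are 1 SE, red for called higher, blue for called lower and grey for not called. Both neuropilins and the 3 tested EPHB receptors lie right of 0, whereas EPHA3, EPHA4 and EPHA7 lie left of it.

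Class 3 semaphorins, the secreted ligands of the neuropilin and plexin receptor complex, were all tested, and 2 of 7 were higher and 3 lower. SEMA3F was at 8.45, 8.06 and 7.78 CPM with control siRNA and at 15.5, 14.2 and 12 CPM with SOX2 siRNA (log2 fold change 0.78, SE 0.0938; edgeR adjusted p = 5.95e-06). SEMA3B was at 21.8, 18.8 and 22.4 CPM in control and at 34.0, 31.1 and 32.5 CPM after SOX2 siRNA (log2 fold change 0.63, SE 0.0658; edgeR adjusted p = 1.17e-06). Both genes were higher in all 3 SOX2 siRNA libraries than in any control. They lie close together on chromosome 3 (GRCh38, GENCODE 29), SEMA3F at chr3:50155045-50189075 and SEMA3B at chr3:50267558-50277546, both on the plus strand. SEMA3G, much further along the chromosome at chr3:52433053-52445085, went the other way, from 14.9 ± 1.13 to 12.3 ± 0.580 CPM (mean ± SD, n = 3; log2 fold change -0.28; edgeR adjusted p = 0.00994).

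The other 4 class 3 genes lie on chromosome 7 between SEMA3C at chr7:80742538-80922359 and SEMA3D at chr7:84995553-85186855, and none of them was called higher. SEMA3E, a ligand that binds PLXND1 without a neuropilin, fell from 22.0 ± 1.57 to 16.6 ± 1.07 CPM (mean ± SD, n = 3; log2 fold change -0.40, SE 0.0702; edgeR adjusted p = 2.93e-04). SEMA3D was scarce and fell from 1.11 ± 0.192 to 0.632 ± 0.153 CPM (log2 fold change -0.81; edgeR adjusted p = 0.0349). SEMA3C, the most abundant of the class per length, had log2 fold change -0.03 and SEMA3A had -0.12, with overlapping libraries and edgeR adjusted p = 0.750 and 0.257. The SEMA3G call was lost without control replicate 2 (adjusted p = 0.0601), and the SEMA3D call without control replicate 1 or 2 or SOX2 siRNA replicate 2 or 3 (edgeR adjusted p = 0.0565 to 0.159). With no library left out, DESeq2's Wald test did not call SEMA3D (adjusted p = 0.151).

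Class 4 semaphorins, membrane ligands known from immune and neural tissue that bind mainly class B plexins, showed 1 call among 6 tested genes. Of all tested genes, 28.2% were called. SEMA4C, a ligand of PLXNB2, was at 44.0, 40.2 and 38.8 CPM in control and at 56.9, 54.7 and 53.8 CPM after SOX2 siRNA (log2 fold change 0.43, SE 0.0515; edgeR adjusted p = 6.42e-06). SEMA4A, SEMA4B, SEMA4D, SEMA4F and SEMA4G had log2 fold changes of -0.68, -0.10, -0.06, 0.06 and 0.18 and did not pass the threshold. SEMA4A was scarce, at 0.989 ± 0.252 CPM in control and 0.615 ± 0.0735 CPM after SOX2 siRNA (SD, n = 3), and its groups did not overlap, but it missed the threshold (edgeR adjusted p = 0.0777). With only genes of at least 10 counts in every library it passed narrowly (0.0495).

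Among the transmembrane and lipid-anchored semaphorins of classes 5, 6 and 7, 2 of 7 were higher and 3 lower. SEMA6A, a transmembrane ligand of PLXNA2 and PLXNA4, was at 484, 458 and 470.4 CPM in control and at 377, 364 and 378 CPM after SOX2 siRNA (log2 fold change -0.34, SE 0.0346; edgeR adjusted p = 9.20e-07). SEMA5B was at 25.4, 26.5 and 23.0 CPM in control and at 17.6, 14.4 and 13.4 CPM after SOX2 siRNA (log2 fold change -0.72; edgeR adjusted p = 1.10e-04). SEMA7A, the lipid-anchored ligand of PLXNC1, fell from 23.9 ± 0.879 to 19.4 ± 0.713 CPM (log2 fold change -0.30; edgeR adjusted p = 9.22e-04). SEMA6C rose from 17.1 ± 1.49 to 21.5 ± 0.425 CPM (log2 fold change 0.32; edgeR adjusted p = 0.00156).

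SEMA5A was near the detection floor, with 3, 3 and 6 counts in control and 16, 15 and 13 counts after SOX2 siRNA (log2 fold change 1.75, SE 0.423; edgeR adjusted p = 0.00462). Every SOX2 siRNA library exceeded every control, but DESeq2's Wald test did not call the gene (adjusted p = 0.0565). SEMA6B and SEMA6D had log2 fold changes of -0.33 and 0.66 (edgeR adjusted p = 0.305 and 0.432). The control libraries of SEMA6D spread from 0.104 to 0.788 CPM.

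Both neuropilins, co-receptors that semaphorins share with vascular endothelial growth factors, rose. NRP1 was at 4.33, 3.95 and 4.25 CPM in control and at 10.6, 12.4 and 12.3 CPM after SOX2 siRNA (log2 fold change 1.49, SE 0.0987; edgeR adjusted p = 3.58e-09), a 2.80-fold increase. NRP2 was at 408, 424 and 403 CPM in control and at 667, 702 and 688 CPM after SOX2 siRNA (log2 fold change 0.74, SE 0.0349; edgeR adjusted p = 3.66e-11), a 1.67-fold increase. The groups did not overlap for either gene. Per kilobase of the longest protein-coding transcript, NRP2 made up 98.9% ± 0.0818 of the neuropilin level in control and 98.1% ± 0.115 after SOX2 siRNA (SD, n = 3). NRP1 thus remained the minor neuropilin in the 6 libraries despite its larger fold change.

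Of the 9 plexins, the signalling receptors for semaphorins, 3 were higher and 2 lower. PLXNA2 was at 57.2, 57.8 and 54.8 CPM in control and at 117, 115 and 109 CPM after SOX2 siRNA (log2 fold change 1.01, SE 0.0430; edgeR adjusted p = 9.75e-12). PLXND1, known from vascular patterning, rose from 137 ± 5.20 to 185 ± 2.80 CPM (mean ± SD, n = 3; log2 fold change 0.44; edgeR adjusted p = 1.04e-07). PLXNC1, the receptor of SEMA7A, went in the opposite direction, from 15.1, 14.9 and 14.9 CPM in control to 4.60, 5.44 and 4.89 CPM after SOX2 siRNA (log2 fold change -1.59, SE 0.0862; edgeR adjusted p = 2.24e-10), a 3.01-fold decrease. SEMA7A and PLXNC1, a ligand and its receptor, were therefore both lower.

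Smaller plexin calls were those of PLXNA4 (log2 fold change 0.21; edgeR adjusted p = 0.0331) and PLXNB1 (log2 fold change -0.19; edgeR adjusted p = 0.0108). The PLXNA4 call was lost when any library other than control replicate 1 was left out (edgeR adjusted p = 0.0571 to 0.114), and the PLXNB1 call without control replicate 3 (0.0572) or SOX2 siRNA replicate 2 (0.0554). With no library left out, PLXNA4 was also not called by DESeq2's Wald test (adjusted p = 0.147) or under upper-quartile scaling (edgeR adjusted p = 0.0539). PLXNA1, PLXNA3, PLXNB2 and PLXNB3 had log2 fold changes between -0.25 and 0.08 and were not called. PLXNA1 passed the threshold without control replicate 2 (edgeR adjusted p = 0.0338) and under upper-quartile scaling (0.0278), and PLXNB2 without SOX2 siRNA replicate 1 (0.0429). Within the plexin level per kilobase, the share of PLXNA2 went from 8.04% ± 0.375 to 14.2% ± 0.470 and that of PLXNC1 from 3.32% ± 0.0650 to 0.968% ± 0.0987 (SD, n = 3). The library ranges did not overlap for either share, and an exact two-sided permutation test gave p = 0.1, the smallest value that 3 against 3 libraries allow.

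**Figure D2:**
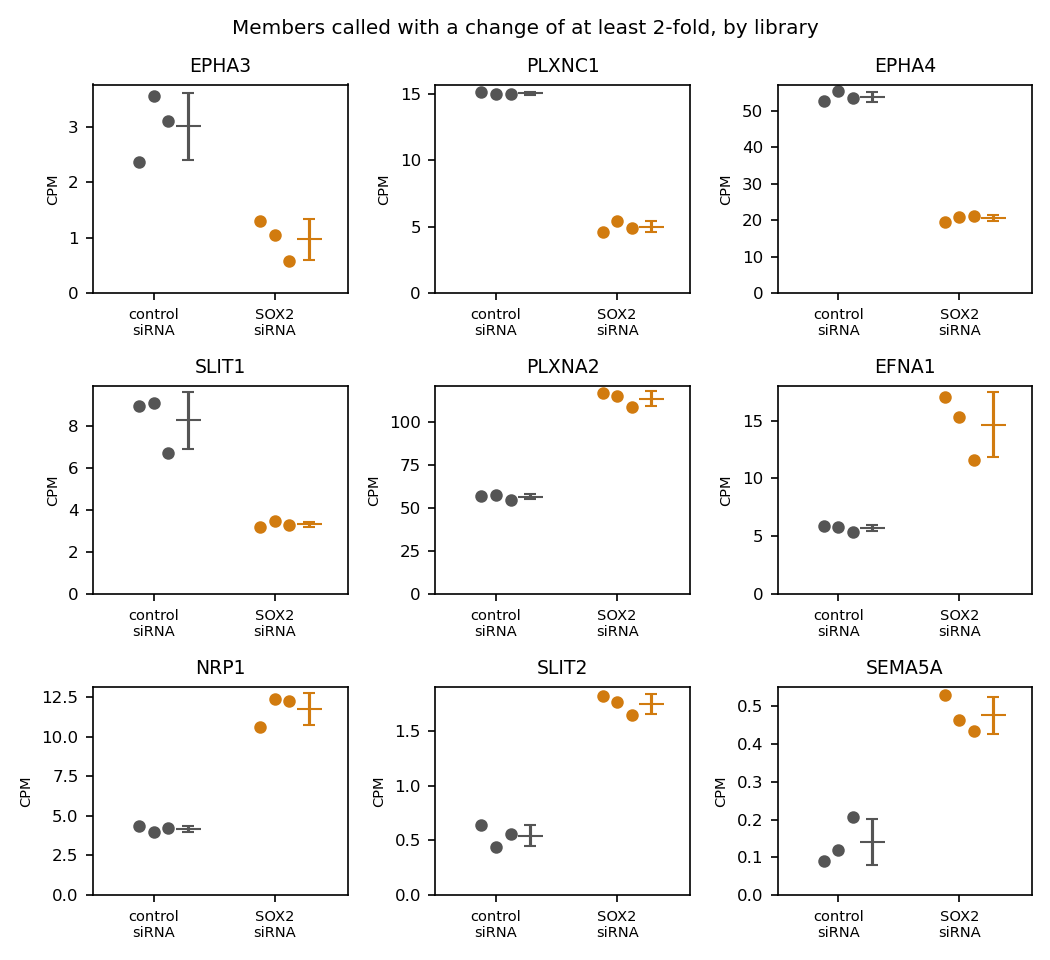
CPM of the 9 members called with a change of at least 2-fold; each point is 1 library, and the bar beside the points is the group mean with 1 SD (n = 3), on axes that start at 0. The members were picked by call and fold change, and the groups do not overlap in any panel, as in all 35 called members. The 3 control libraries of PLXNC1 lie between 14.9 and 15.1 CPM.

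The SLIT genes, which encode secreted repellents, changed in opposite directions. SLIT1 was at 8.97, 9.10 and 6.71 CPM in control and at 3.21, 3.46 and 3.28 CPM after SOX2 siRNA (log2 fold change -1.31, SE 0.128; edgeR adjusted p = 4.67e-07). SLIT2 was at 0.636, 0.439 and 0.553 CPM in control and at 1.82, 1.76 and 1.64 CPM after SOX2 siRNA (log2 fold change 1.66, SE 0.234; edgeR adjusted p = 3.64e-05). SLIT3 had 1 to 4 counts per library and was not tested. Per kilobase, SLIT1 made up 91.8% ± 1.74 of the SLIT level in control and 59.6% ± 1.52 after SOX2 siRNA, while SLIT2 went from 7.63% ± 1.85 to 38.8% ± 1.68 (SD, n = 3; exact permutation p = 0.1, the smallest possible). Both tested SLIT genes were scarce per length, with means over the 6 libraries of 0.731 CPM per kb for SLIT1 and 0.179 CPM per kb for SLIT2.

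On the receptor side of this pair, ROBO1 was abundant and rose slightly, from 155 ± 4.23 to 176 ± 2.63 CPM (mean ± SD, n = 3; log2 fold change 0.18, SE 0.0360; edgeR adjusted p = 9.40e-04). ROBO3, a Robo known for its role in fibres that cross the midline, had log2 fold change 0.15 with overlapping libraries (edgeR adjusted p = 0.167). ROBO2 had 0 to 3 counts and ROBO4, known from endothelium, 3 to 11 counts per library. ROBO1 held 86.2% ± 0.680 of the Robo level per kilobase in control and 86.4% ± 1.15 after SOX2 siRNA.

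Netrin-1 was the 1 netrin that passed the filter. NTN1 was at 64.0, 56.6 and 57.4 CPM in control and at 70.4, 67.2 and 69.1 CPM after SOX2 siRNA (log2 fold change 0.21, SE 0.0493; edgeR adjusted p = 0.00330). The 2 tested UNC5 genes, which encode repulsive netrin receptors, rose as well. UNC5C was at 18.0, 18.1 and 20.6 CPM in control and at 29.1, 30.6 and 32.2 CPM after SOX2 siRNA (log2 fold change 0.70, SE 0.0647; edgeR adjusted p = 2.57e-07). UNC5B, a receptor also known as a dependence receptor that acts in vessels, rose from 18.8 ± 1.87 to 22.8 ± 0.350 CPM (log2 fold change 0.27; edgeR adjusted p = 0.00737).

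DCC, the attractive netrin receptor, had 7, 7 and 10 counts in control and 3, 2 and 5 counts after SOX2 siRNA and did not pass the filter. UNC5A had 1 to 4 counts, UNC5D had 0 counts in all 6 libraries, and NTN3, NTN4 and NTN5 had at most 10. Among the DCC and UNC5 genes, the 2 tested UNC5 receptors therefore carried nearly the whole level. UNC5C went from 40.6% ± 2.66 to 48.0% ± 1.45 of it and UNC5B from 58.3% ± 2.85 to 51.5% ± 1.46 (SD, n = 3; exact permutation p = 0.1 for each, the smallest possible). These shares leave out NEO1, a netrin receptor gene related to DCC that is not a member. NEO1 stood at 144 ± 3.17 CPM in control and 142 ± 3.12 CPM after SOX2 siRNA (SD, n = 3). It was not called (log2 fold change -0.02; edgeR adjusted p = 0.774).

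Ephrin-A genes, which encode lipid-anchored ligands, showed 2 higher members, none lower and 2 not called among 4 tested. EFNA1 was at 5.91, 5.79 and 5.40 CPM in control and at 17.1, 15.3 and 11.6 CPM after SOX2 siRNA (log2 fold change 1.36, SE 0.133; edgeR adjusted p = 1.41e-05). The SOX2 siRNA libraries spread more than the control ones, yet the lowest of them was 11.6 CPM and the highest control 5.91 CPM. EFNA5, the most abundant ephrin-A per length, rose from 94.9 ± 4.50 to 116 ± 3.75 CPM (mean ± SD, n = 3; log2 fold change 0.28; edgeR adjusted p = 7.09e-05).

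EFNA1 lies in a cluster with 2 other ephrin genes on the plus strand of chromosome 1, in the order EFNA4 (chr1:155063731-155069553), EFNA3 (chr1:155078872-155087538) and EFNA1 (chr1:155127460-155134857). Its 2 neighbours had log2 fold changes of 0.16 (EFNA4; edgeR adjusted p = 0.242) and 0.39 (EFNA3; edgeR adjusted p = 0.345). EFNA3 was at 11.6, 7.67 and 5.99 CPM after SOX2 siRNA and at 6.06 to 6.67 CPM in control, so replicates 1 and 2 lay above all controls and replicate 3 below them. Without SOX2 siRNA replicate 3 the gene was called (log2 fold change 0.58; edgeR adjusted p = 0.0212), and without replicate 1 the log2 fold change was 0.09. Of the exon bases of EFNA3, 44.7% overlap a read-through gene on the same strand, as do 15% of those of EFNA4, so the counts of both are uncertain. EFNA2 had 3 to 7 counts per library and was not tested.

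Ephrin-B genes encode transmembrane ligands that can also signal into the cell bearing them. EFNB1 was at 48.7, 50.1 and 52.5 CPM in control and at 38.8, 37.6 and 38.8 CPM after SOX2 siRNA (log2 fold change -0.39, SE 0.0471; edgeR adjusted p = 5.57e-06). EFNB3 rose slightly, from 25.9 ± 1.35 to 29.4 ± 0.812 CPM (log2 fold change 0.18; edgeR adjusted p = 0.0200), a call lost when control replicate 2 or 3 or SOX2 siRNA replicate 1 or 2 was left out (0.0609 to 0.104). With no library left out, DESeq2's Wald test did not call EFNB3 (adjusted p = 0.0694). EFNB2, the most abundant of the 3 per length, stood at 87.0 ± 0.491 and 84.2 ± 0.280 CPM and was not called (log2 fold change -0.05, SE 0.0374; edgeR adjusted p = 0.389). An antisense gene overlaps 26.2% of the exon bases of EFNB2, and whether counting used strand is not given in the sources used here.

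Of the 5 tested EPHA genes, 3 were lower and 1 higher, and all 3 tested EPHB genes were higher. EPHA4, a receptor with broad ephrin binding, was at 52.6, 55.4 and 53.5 CPM in control and at 19.5, 21.0 and 21.1 CPM after SOX2 siRNA (log2 fold change -1.39, SE 0.0513; edgeR adjusted p = 1.28e-12), a 2.62-fold decrease. EPHA7 was at 35.0, 39.5 and 37.4 CPM in control and at 20.2, 24.0 and 23.8 CPM after SOX2 siRNA (log2 fold change -0.71, SE 0.0681; edgeR adjusted p = 6.93e-07). EPHA3, much scarcer, was at 2.36, 3.55 and 3.11 CPM in control and at 1.29, 1.05 and 0.569 CPM after SOX2 siRNA (log2 fold change -1.62, SE 0.255; edgeR adjusted p = 1.96e-04). The 3 genes were lower in every SOX2 siRNA library than in any control.

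EPHA2, a receptor widely present in epithelial and cancer cells and a binding partner of EFNA1, was at 21.7, 18.1 and 21.0 CPM in control and at 25.4, 26.2 and 27.9 CPM after SOX2 siRNA (log2 fold change 0.38; edgeR adjusted p = 4.02e-04). EPHA1 had log2 fold change -0.56 and missed the threshold (edgeR adjusted p = 0.0568), though it passed without SOX2 siRNA replicate 2 (0.0197) and with only genes of at least 10 counts in every library (0.0436). EPHA5, EPHA6, EPHA8 and EPHA10 had at most 5 counts in any library.

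EPHB4, the EphB receptor known for the venous side of vessels, was at 57.7, 52.6 and 54.0 CPM in control and at 74.7, 70.1 and 69.3 CPM after SOX2 siRNA (log2 fold change 0.38, SE 0.0476; edgeR adjusted p = 9.60e-06). EPHB3 rose from 14.2 ± 0.438 to 19.3 ± 1.21 CPM (log2 fold change 0.44; edgeR adjusted p = 9.12e-05) and EPHB2 from 21.4 ± 0.753 to 26.1 ± 2.04 CPM (log2 fold change 0.29; edgeR adjusted p = 0.00280). EPHB1 and EPHB6 had 2 to 10 counts per library. Summed per kilobase over each class, EPHA receptors went from 20.5 ± 0.222 to 14.0 ± 0.687 CPM per kb and EPHB receptors from 18.1 ± 0.582 to 23.5 ± 1.09 CPM per kb (SD, n = 3).

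Class A therefore made up 52.0%, 54.1% and 53.4% of the Eph receptor level with control siRNA and 35.0%, 38.1% and 39.2% with SOX2 siRNA. The ranges did not overlap (exact two-sided permutation p = 0.1, the smallest this design allows). EPHA4 alone went from 22.0% ± 0.777 to 8.61% ± 0.441 of the level, and EPHB4 from 31.8% to 34.2% in control libraries to 42.9% to 45.5% after SOX2 siRNA. Within class A, EPHA4 was the most abundant receptor per length in control, at 41.4% ± 0.711 of the class, and EPHA2 after SOX2 siRNA, at 47.7% ± 1.45.

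**Figure D3:**
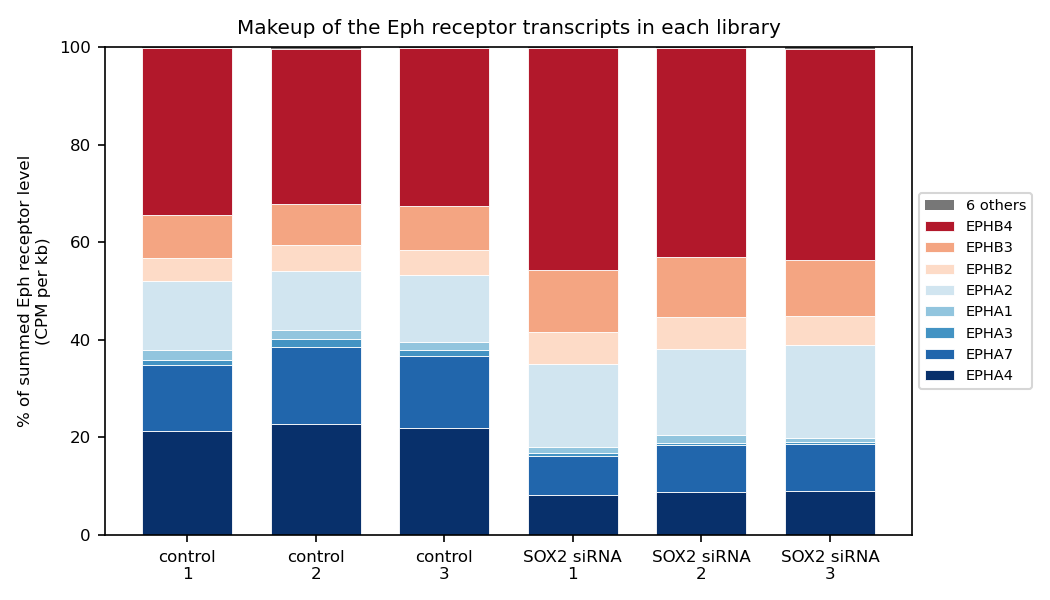
Share of each Eph receptor in the summed Eph level (CPM per kilobase of the longest protein-coding transcript) in the 6 libraries, with class A in blue, class B in red and the 6 receptors below the filter in grey. Class A as a whole, counting its receptors in the grey part, takes 52.0% to 54.1% of each control bar and 35.0% to 39.2% of each SOX2 siRNA bar.

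Several members that rose are also known from blood vessels, among them NRP1, PLXND1, UNC5B and EPHB4. These were picked from the members that rose. SEMA3E, a ligand of PLXND1, was lower, EFNB2, a class B ephrin, was not called, and ROBO4, known from endothelium, was below the filter. Endothelial markers were read beside the members. Of 8 such markers, 6 were tested. KDR, PECAM1, CDH5, TEK and VWF were called lower and TIE1 higher, while CLDN5 had 0 counts in every library and ERG had at most 2. PECAM1 was at 64.2 ± 1.48 CPM in control and 43.7 ± 0.545 CPM after SOX2 siRNA (SD, n = 3), and the summed list at 143 to 148 CPM and 116 to 118 CPM. Of 4 blood markers HBB had 0 counts, HBA1 and PTPRC had at most 3 in any library, and CD68 stood at 0.588 ± 0.210 CPM in control and 0.383 ± 0.219 CPM after SOX2 siRNA and was not called. For 5 ovarian surface and granulosa markers, WT1 was called lower and none higher. The part of these markers in the member changes was not tested.

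Levels can be compared between genes only per length. On that scale the 53 tested members spanned from 0.0262 CPM per kb for SEMA5A to 82.3 CPM per kb for NRP2, as means over the 6 libraries. SEMA6A headed the order in control, at 68.4 ± 1.89 CPM per kb against 61.8 ± 1.68 CPM per kb for NRP2. In SOX2 siRNA libraries NRP2 led at 103 ± 2.67 CPM per kb, followed by SEMA6A at 54.2 ± 1.19 CPM per kb. SEMA3C, PLXND1, ROBO1, EFNA5 and EFNB2 came next over the 6 libraries. This order depends on using the longest protein-coding transcript and was not repeated with other lengths. In control, PLXND1 at 19.3 ± 0.732 and ROBO1 at 20.7 ± 0.564 CPM per kb lay close together, as did EFNA5 at 17.8 ± 0.843 and EFNB2 at 17.4 ± 0.0983 CPM per kb, the latter pair differing by less than the spread between replicates.

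**Figure D4:**
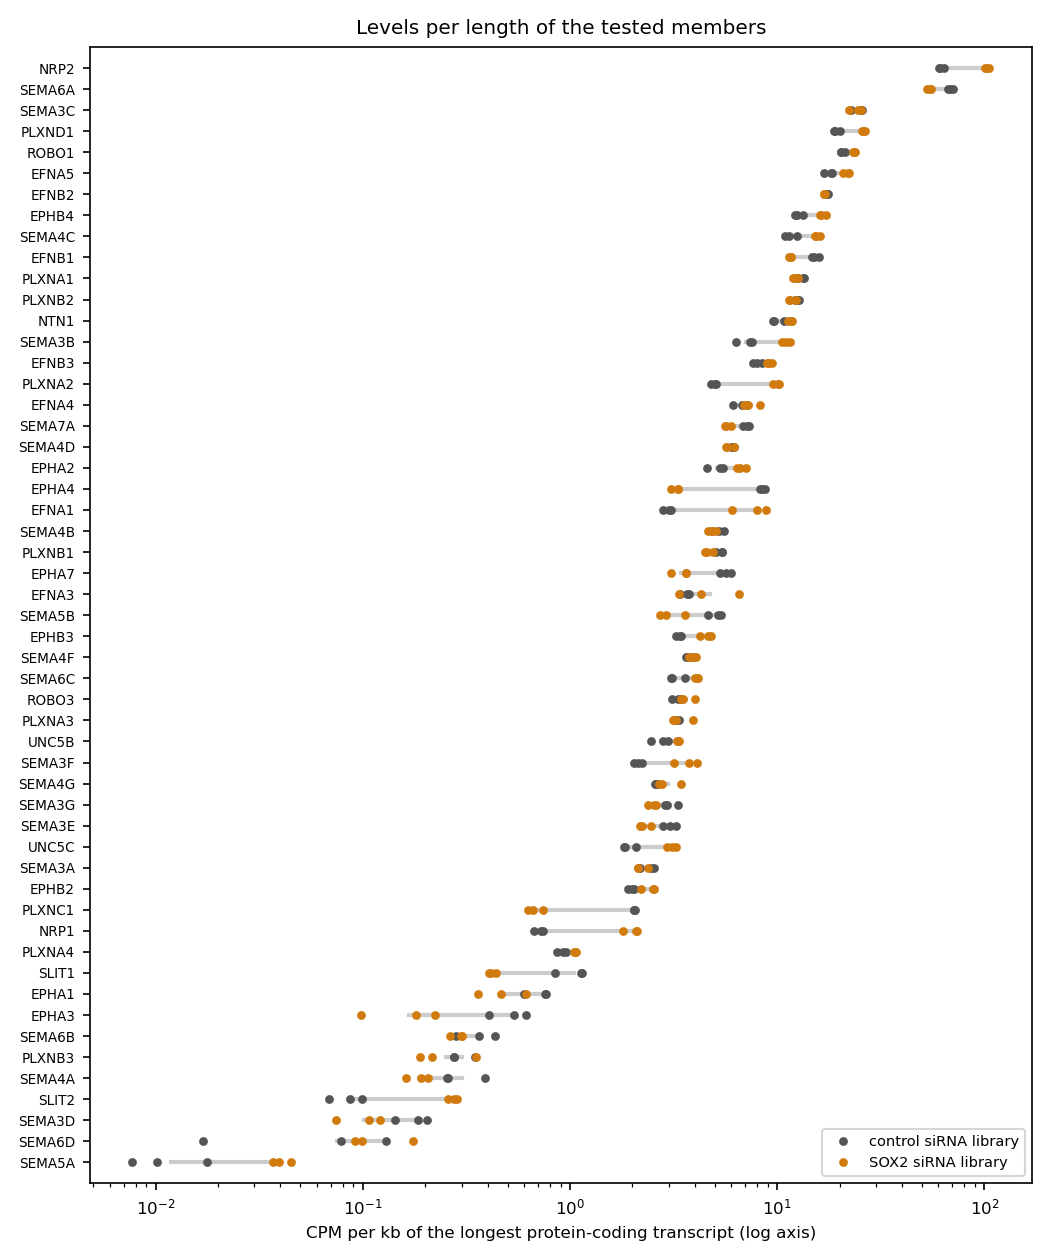
Level of each tested member in CPM per kilobase of the longest protein-coding transcript on a log axis, ordered by the mean over the 6 libraries; each point is 1 library and grey lines join the group means. NRP2 is the highest at 82.3 CPM per kb and SEMA5A the lowest at 0.0262 CPM per kb.

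The 16 members below the filter had between 0 and 11 counts in any library. They were SLIT3, ROBO2, ROBO4, NTN3, NTN4, NTN5, DCC, UNC5A, UNC5D, EFNA2, EPHA5, EPHA6, EPHA8, EPHA10, EPHB1 and EPHB6. The group held 11 of the 34 receptor genes and 5 of the 35 ligand genes. Among tested genes, 12 of 23 receptors were higher and 5 lower, and 10 of 30 ligands were higher and 8 lower. Of all tested genes, 14.8% were called higher and 13.4% lower. Exons of 19 tested members overlap another gene, 5 of them over at least 10% of their exon bases. Beside EFNA3, EFNA4 and EFNB2 these are SEMA4G, with 22.3% under an opposite-strand gene, and PLXNB3, with 20.4% shared with a same-strand gene. The overlap was at most 4.87% in the other 14, which include NRP1, EPHA4, SEMA5A, SEMA6A, SLIT1 (same strand), SEMA3F and PLXNC1.

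Promoter sequences of the members were searched for the letters of a core recognition sequence of SOX factors. RefSeq promoter windows (GRCh38.p14, 250 bases before to 50 bases after a start site) matched 59 of the 69 members. The core ACAATG, or its reverse complement CATTGT, was searched on both strands. It occurred in at least 1 window of 6 of the 59 members (10.2%), against 9.21% of the matched tested genes and 13% of all genes in the promoter table. Counted by window, the shares were 6.59% for members, 6.92% for tested genes and 10.8% for all windows. Among called members it occurred in 2 of 12 lower and 1 of 18 higher genes. Those 3 stretches are shown because they are the matches among called members, 5′ to 3′ on the gene's strand with the core in capitals: EPHA4 from chr2:221574317-221574352 (minus strand), with the core 135 bases before an annotated start, PLXNC1 from chr12:94148562-94148597 (plus strand) and SEMA6C from chr1:151146612-151146647 (minus strand), with the core at or next to a start.
EPHA4: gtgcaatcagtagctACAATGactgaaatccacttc
PLXNC1: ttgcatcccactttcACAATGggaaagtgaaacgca
SEMA6C: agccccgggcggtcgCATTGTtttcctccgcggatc
These matches are descriptions of the reference sequence, and binding was not measured here. EPHA4 and PLXNC1 were lower after SOX2 siRNA, and SEMA6C was higher.

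The rest of the pathway was read from a list of 108 further genes of axon guidance, of which 97 were tested. Of these, 35 were higher and 17 lower, so 53.6% were called against 28.2% of all tested genes. At a mean of at least 10 CPM, 43 of 78 (55.1%) were called, against 35.9% of all genes at that level. The median log2 fold change of the list was 0.04, and the list was also chosen with earlier results of these data known. Transducers of semaphorin and plexin signals held 12 higher and 2 lower genes among 22 tested, those of Slit and Robo 6 and 3 among 17, those of netrins 6 and 3 among 12, and those of Eph receptors and ephrins 8 and 4 among 31. In the last of these, 8 of the 25 genes at 10 CPM or more were called (32%), near the share of all genes at that level. Receptor partners and co-receptors were mixed, with 3 higher and 5 lower among 15.

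The smallest p-values in that list belonged to DPYSL3 and NRCAM. DPYSL3, a member of the CRMP family that relays semaphorin signals to the cytoskeleton, fell from 379 ± 5.01 to 167 ± 3.63 CPM (mean ± SD, n = 3; log2 fold change -1.19; edgeR adjusted p = 4.66e-14). NRCAM, an adhesion molecule that associates with neuropilin-2, fell from 175 ± 6.67 to 86.6 ± 0.484 CPM (log2 fold change -1.01; edgeR adjusted p = 2.13e-12). DPYSL2, another gene of that family, rose from 205 ± 1.39 to 256 ± 1.38 CPM (log2 fold change 0.32; edgeR adjusted p = 7.75e-07). The other CRMP genes of the list, CRMP1, DPYSL4 and DPYSL5, were not called (log2 fold changes 0.87, -0.07 and 0.39; edgeR adjusted p = 0.106, 0.677 and 0.465). MICAL1, which encodes an oxidoreductase that acts on actin downstream of plexins, rose (log2 fold change 0.75; edgeR adjusted p = 1.06e-08).

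Downstream of the other receptors, KALRN and TRIM9, a ligase that binds DCC, rose with log2 fold changes of 0.86 and 0.94 (edgeR adjusted p = 5.20e-08 and 1.23e-07). SRGAP3, a GTPase-activating protein that binds Robo receptors, fell from 9.40 ± 0.922 to 4.67 ± 0.270 CPM (mean ± SD, n = 3; log2 fold change -1.01; edgeR adjusted p = 9.25e-07). PAK1, a kinase downstream of Rac, fell by 0.37 on the log2 scale (edgeR adjusted p = 1.01e-06). Of the exon bases of KALRN, 10.4% overlap a gene on the same strand. An antisense gene overlaps 14.8% of those of PAK1, so the counts of both are uncertain. Each of these 8 genes had library ranges that did not overlap between the groups. They were picked by smallest p-value, which favours such genes, and 41.8% of all tested genes had no overlap.

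**Figure D5:**
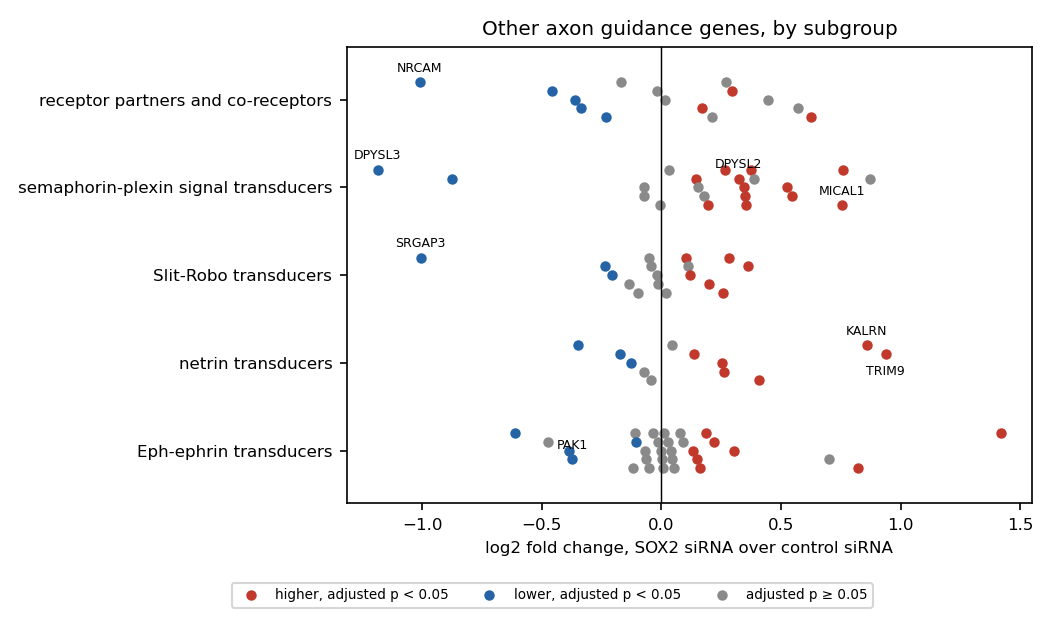
Log2 fold change of the 97 tested genes of the further axon guidance list by subgroup, SOX2 siRNA over control siRNA, red for called higher, blue for called lower and grey for not called; vertical offsets within a subgroup only separate points. The 8 genes with the smallest p-values are named, with DPYSL3 at -1.19 and NRCAM at -1.01.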

How the data were processed

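Polyadenylated RNA was sequenced in 6 libraries, 3 of PA1 cells with control siRNA and 3 with SOX2 siRNA, grouped by their titles. The authors deposited raw counts per gene symbol, 1 column per library; the values are whole numbers with unequal totals. The submitters' processing notes name bcl2fastq 2.20.0, STAR 2.7.3a, Salmon 0.14.1, DESeq2 1.28.1 and GRCh38.p13, without roles; the annotation and the use of strand are not given in the sources used here, so reads of overlapping genes may be shared.

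Genes were kept by filterByExpr (minimum count 10), scaled by TMM and tested with edgeR 4.0.16 (R 4.3.3; glmQLFit with robust=TRUE, glmQLFTest), with p-values adjusted (Benjamini-Hochberg) over the 17592 genes tested and called at values under 0.05. Alternatives used DESeq2 1.42.0 and limma 3.58.1. Levels per kilobase use the longest protein-coding transcript in GENCODE 29. Shares were compared by exact permutation tests. Figures used matplotlib 3.10.9. The tests of single genes, but not the comparison of shares, were run on simulated counts with fewer changed genes than were called here. The outcome is not given here. Total counts were 25152313 to 32753184 per library; floors (3 counts) cover counting error only.

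The members and lists were chosen with earlier results of these data known. Named genes were SOX2, up to 3 called members per family by smallest p, those changed at least 2-fold, the most abundant per length, and the 8 smallest p-values of the further list; other members are named so that each is accounted for. The title numbers were tested as a block.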

Additional observations from a re-analysis of the deposited data

How the results depend on the processing

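SOX2 stayed lower in each of the 16 alternatives. Of the 35 called members, 29 kept their call under each alternative other than glmTreat and none of the 35 changed sign; the calls lost under some alternative were those of SEMA3D, SEMA3G, SEMA5A, PLXNA4, PLXNB1 and EFNB3. Asking for a change beyond 1.5-fold reduced the calls to 497 of all genes, 5 higher and 4 lower members, and 3 higher and 3 lower genes of the further list, as its construction implies. Leaving out 1 library gave 20 to 22 higher and 12 to 14 lower members, 29 to 34 higher and 14 to 20 lower genes of the further list, and 3760 to 4863 calls over all genes. Uncalled genes changed sign in 3 cases when 1 library was left out: the log2 fold change of SEMA3C ranged from -0.089 to 0.017 (above 0 without control replicate 3 or SOX2 siRNA replicate 1), and that of PLXNA3 from -0.032 (without SOX2 siRNA replicate 1) to 0.138; the cause was not tested.

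With the replicate number as a block, 22 members were higher and 15 lower, with PLXNA1 (adjusted p = 0.0439) and EPHA1 (0.0327) added, and 5177 genes were called. Same-numbered libraries had correlations of deviations of 0.0868, -0.0377 and -0.0311, and differently numbered ones had -0.12 to 0.155. Control replicate 1 correlated best with its own number, and control replicates 2 and 3 did not. Deviations from a mean of 3 libraries sum to 0 within a group, so these values cannot decide whether same-numbered libraries were paired.

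Exon-union lengths, an alternative chosen after seeing the data, moved percent shares of leading members in their own family by more than 1 SD. In control and SOX2 siRNA libraries they were 60.7 and 57.0 for SEMA3C, 37.6 and 44.6 for SEMA4C, 77.4 and 75.6 for SEMA6A, 28.3 and 33.9 for PLXND1, 93.6 and 66.1 for SLIT1, 39.6 and 21.5 for EPHA4 among EPHA genes, 63.4 and 63.5 for EPHB4 among EPHB genes, and 57.2 and 42.0 for class A of the Eph receptors. They were 86.9 for ROBO1 in control, and 98.0 for NRP2 and 53.5 for UNC5B in SOX2 siRNA libraries. Depth limits members near the floor, such as SEMA5A and SEMA3D.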
